A study of Mus musculus with 55 samples.

Results

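Oncofetal genes are made in the fetal liver, largely silenced after birth and often switched on again in liver tumours. Several of them are imprinted, so that only the copy from one parent is read. This account follows 10 such genes, all of which are listed by symbol in the count tables of both sequencing batches, out of 34490 symbols that the batches share. The genes fall into 4 groups. Dlk1, Meg3, Rian and Mirg lie in the Dlk1-Dio3 domain, where Dlk1 is read from the paternal chromosome and the non-coding RNAs Meg3, Rian and Mirg are read from the maternal one. H19, a maternally read non-coding RNA, and Igf2, the paternally read fetal growth factor, share another imprinted locus. Peg3 is a paternally read zinc finger gene. Afp (alpha-fetoprotein, the albumin of the fetus), Gpc3 (glypican 3, a proteoglycan of the cell surface) and Igf2bp3 (an RNA-binding protein of the fetus) are used as markers of hepatocellular carcinoma in human pathology. The genes were picked by symbol with earlier results of these data known, so their own values are given as a description, without a p-value.

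RNA of whole livers of adult C57BL/6 mice, 8 to 16 weeks old at the start, was sequenced by Smart-Seq2. R&Z del mice carried an induced deletion in hepatocytes of Rnf43 and Znrf3, which encode membrane ubiquitin ligases that remove WNT receptors, and R&Z flox mice carried the same floxed alleles without recombination. Deletion was induced with tamoxifen in mice with Alb1-CreERT2 or with the virus AAV8-TBG-Cre, both active in hepatocytes, and controls received vehicle or an AAV without Cre. Livers were taken without damage at 1, 3 and 7 months after deletion (1M, 3M, 7M), at 4, 50 and 170 days after the last of repeated injections of the hepatotoxin CCl4 (chronic damage, CD), or at 7 and 21 days after partial hepatectomy (PHx). The labels mark the R&Z flox livers of the CD groups as damaged, and the study describes these controls as damaged too, although one sentence of its methods says that unrecombined controls received oil only. Batch 1 held the CD livers (tamoxifen, 2 R&Z del and 2 R&Z flox at 4 and 170 days, 2 and 1 at 50 days) and undamaged livers (tamoxifen, 1 R&Z del and 2 R&Z flox at 3M, 2 and 2 at 7M). Batch 2 held undamaged livers (4 and 4 at 1M and 1 and 3 at 3M with virus, 3 and 3 at 7M with tamoxifen) and the PHx livers (3 and 3 at each time, virus). At 3M, batch and means of induction therefore cannot be told apart. Of the batch 1 libraries whose title and characteristics conflict, 5 entered no group. The R&Z del liver at 3M and R&Z flox replicate 5 at 7M were grouped by their characteristics, although their titles name other times or treatments.

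Counts on genes ranged from 22678922 to 38692089 per library in batch 1 and from 11721687 to 32168223 in batch 2. Levels are given as CPM, the count scaled to the total count of the library, and 3 counts or fewer in a library are called low. Of the 180 values of these genes in the labelled libraries of batch 1, 43 were low, and of the 300 values in batch 2, 212 were low. The counts of Rnf43 and Znrf3 run over the whole gene, so they do not check the deleted exons. In batch 1, Rnf43 ranged from 18.3 to 36.4 CPM in R&Z del and from 4.98 to 18.5 CPM in R&Z flox livers, and Znrf3 from 11.6 to 25.9 and from 4.50 to 9.52 CPM. The hepatocyte markers were present in every CD library, with Alb between 17817 and 72453 CPM.

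The Dlk1-Dio3 domain is a block of neighbouring genes on chromosome 12 (mm10), from Dlk1 (chr12:109452485-109463336) over Meg3 (chr12:109540996-109571729), Rian (chr12:109603945-109661716) and Mirg (chr12:109734981-109749458), all on the plus strand, to Dio3. Its maternal RNAs are hosts of small RNAs. In the RefSeq table (GRCm38.p6, the assembly of mm10), 3 mature miRNAs lie within Meg3, 6 within Rian and 19 within Mirg on the same strand. H19 (chr7:142575530-142578146, minus strand) is the host of miR-675. These mature miRNAs are printed because they are the best-defined products of the non-coding members, with the seed (bases 2 to 8) in capitals. Among the miRNAs of the H19, Igf2, Meg3, Rian and Mirg transcripts, miR-453 and miR-496a-5p, both within Mirg, were the one pair with the same seed.
mmu-miR-675-5p (H19): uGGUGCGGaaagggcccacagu
mmu-miR-675-3p (H19): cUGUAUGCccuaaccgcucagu
mmu-miR-453 (Mirg): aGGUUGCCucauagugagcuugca
mmu-miR-496a-5p (Mirg): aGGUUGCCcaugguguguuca
mmu-miR-770-5p (Meg3): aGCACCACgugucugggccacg
mmu-miR-370-3p (Rian): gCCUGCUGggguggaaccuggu
The libraries did not measure mature miRNAs. Of 61 miRNA rows between Dlk1 and Dio3, 58 held 0 counts in all 11 CD libraries, and the others held 5 counts together.

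The promoters of Meg3 and Afp are shown because these were the members with the highest levels. Each runs from 250 bases before to 50 bases after the start of the gene in RefSeq (GRCm38.p6), 5′ to 3′ on the plus strand, and capitals mark letters of the TCF/LEF core CTTTGA, the cAMP response element TGACGTCA or the TATA box TATAAA on either strand.
Meg3, chr12:109540746-109541045: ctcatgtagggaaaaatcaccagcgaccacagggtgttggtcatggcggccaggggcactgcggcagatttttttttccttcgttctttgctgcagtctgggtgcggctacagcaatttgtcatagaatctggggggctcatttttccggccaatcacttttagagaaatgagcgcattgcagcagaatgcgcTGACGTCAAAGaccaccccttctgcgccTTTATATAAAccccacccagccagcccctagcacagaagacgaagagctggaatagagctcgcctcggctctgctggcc
Afp, chr5:90490464-90490763: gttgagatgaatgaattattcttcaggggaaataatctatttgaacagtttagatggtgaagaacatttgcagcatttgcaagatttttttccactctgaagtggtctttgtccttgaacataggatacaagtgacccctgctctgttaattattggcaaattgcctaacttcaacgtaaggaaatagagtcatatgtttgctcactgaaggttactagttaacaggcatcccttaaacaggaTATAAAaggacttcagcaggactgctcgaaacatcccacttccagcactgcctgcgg
In Meg3, the cAMP response element and the TCF/LEF core, which lies on the minus strand, overlap. The 9 members with an entry have 13 promoters. The TCF/LEF core was found in 2 of these 13 (Meg3 and Igf2) and in 16% of the 32851 promoters of the table. The cAMP response element was found in 2 of the 13 (Meg3 and Peg3) and in 1.79% of all promoters. The TATA box was found in 2 of the 13 (Meg3 and Afp) and in 13.6% of all promoters. A match of letters is a description and no evidence of binding.

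At 4 days after the last CCl4 dose, 9 of the 10 genes were higher in both R&Z del livers than in both R&Z flox livers. Of 25877 genes with a count in these 4 libraries, 50.3% had the same order, so the count by itself says little about these genes, and the size of the differences is given for each. No member was lower in both R&Z del livers, where 7.97% of genes were. The 7 genes with the largest differences were Meg3, Rian, Dlk1, Mirg, Igf2, H19 and Afp, which lay between 14.8 and 343 times higher in R&Z del livers, as the ratio of CPM pooled over the libraries of each group. Gpc3, Igf2bp3 and Peg3 differed less.

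Meg3 reached the highest level of all members at this time. It was at 78.8 and 59.7 CPM in the R&Z del livers (2169 and 1818 counts) and at 0.366 and 0.102 CPM in the R&Z flox livers (11 and 3 counts). The groups lie far apart, with a pooled ratio of 293 (95% counting interval 174 to 536; such intervals are exact, conditional on the total, and cover counting error only). Rian, the RNA that follows Meg3 on the chromosome, was at 10.1 and 12.8 CPM in R&Z del and at 0.0666 and 0 CPM in R&Z flox livers. With only 2 counts in the R&Z flox livers, its ratio of 343 has an interval of 94.6 to 2840.

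Mirg was at 2.73 and 2.30 CPM in R&Z del livers and had 1 count in the R&Z flox livers together, a ratio of 149 with an interval of 26.3 to 5925. Dlk1, which encodes a transmembrane relative of the Notch ligands, was at 18.6 and 17.8 CPM in R&Z del and at 0.0666 and 0.169 CPM in R&Z flox livers, a ratio of 155 (74.8 to 385). Genes of both parental copies of the domain were thus high in the same 2 libraries.

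H19 was at 20.3 and 25.9 CPM in R&Z del and at 0.400 and 0.609 CPM in R&Z flox livers, a ratio of 46.1 (32.1 to 68.6). Igf2 was much lower in level, at 3.09 and 2.04 CPM in R&Z del livers and 1 count in each R&Z flox liver, a ratio of 75.5 (20.5 to 629). Both genes of this locus were therefore separated between the groups. Peg3 was at 2.25 and 2.10 CPM in R&Z del and at 1.30 and 1.25 CPM in R&Z flox livers, a ratio of 1.70 (1.27 to 2.3).

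Of the hepatocyte markers of fetal liver and carcinoma, Afp was at 23.7 and 35.8 CPM in R&Z del and at 2.33 and 1.73 CPM in R&Z flox livers, a ratio of 14.8 (12.3 to 18). Afp was the one member with over 50 counts in every R&Z flox CD liver but 1. Gpc3 was at 2.91 and 5.19 CPM in R&Z del and at 0.533 and 1.69 CPM in R&Z flox livers, so that the groups do not overlap but each spans a wide range. Igf2bp3 overlapped, with 0.291 and 1.51 CPM in R&Z del and 0.47 and 0.169 CPM in R&Z flox livers.

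Per length, the order of the genes is different. With the exons on the chromosome alone, R&Z del livers at 4 days had a mean level of 14.3 CPM per kb for Afp and 10.1 CPM per kb for H19. Meg3 followed at 5.35, Dlk1 at 3.72, Rian at 3.20, Mirg at 1.93 and Gpc3 at 1.78 CPM per kb. Igf2 was at 0.451, Peg3 at 0.189 and Igf2bp3 at 0.143 CPM per kb. Between the 2 livers, Afp ranged from 11.4 to 17.2 and H19 from 8.87 to 11.3 CPM per kb, so that these neighbours in the order lie close to each other, while Meg3, from 4.61 to 6.09 CPM per kb, stood below both.

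**Figure D1:**
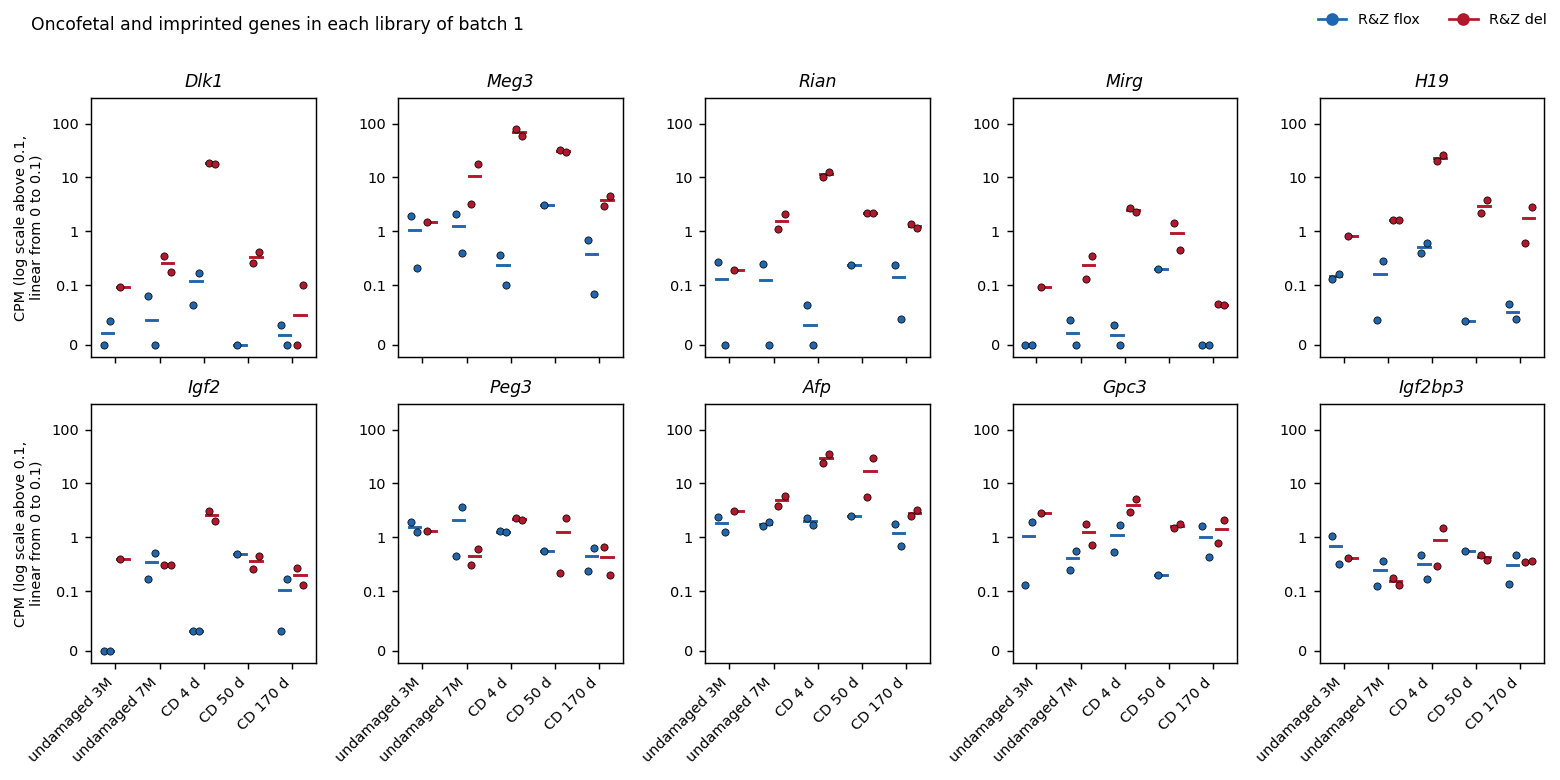
CPM of each of the 10 genes (vertical axis, logarithmic above 0.1 and linear from 0 to 0.1) in every labelled library of batch 1, by condition; points are libraries, bars the group mean, red R&Z del and blue R&Z flox. The R&Z del livers at CD 4 days stand highest for Dlk1, Meg3, Rian, Mirg, H19 and Igf2; for Afp, 1 R&Z del liver at 50 days (29.2 CPM) lies between them.

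In the model of the 11 CD libraries (edgeR's quasi-likelihood test, adjusted p under 0.1 and a log2 fold change over 1 in either direction), Afp, Gpc3, Meg3 and Rian passed the filter of 1 CPM or more in 6 libraries. Of these 4, Afp, Meg3 and Rian were called higher at 4 days, where 10.2% of the 11935 genes tested were called higher. Rian met the filter through the 6 R&Z del livers alone and Meg3 through these and 1 R&Z flox liver, so the count of calls is given as a description. H19, which had 1 CPM or more in 5 libraries, Mirg in 3, Dlk1 in 2 and Igf2 in 2, failed it. Without the filter, Dlk1, H19, Igf2 and Mirg were called as well, 7 of 10 in all against 8.15% of 28319 genes. The log2 fold changes of the fit without the filter were 7.61 ± 0.38 (SE) for Meg3, 7.66 ± 0.74 for Rian, 6.65 ± 0.62 for Dlk1 and 6.34 ± 1.13 for Mirg. They were 5.53 ± 1.05 for Igf2, 4.92 ± 0.47 for H19 and 3.28 ± 0.34 for Afp. The other 3 were not called, with 1.28 ± 0.55 for Gpc3, 0.87 ± 0.86 for Igf2bp3 and 0.20 ± 0.63 for Peg3. With a filter of 1 CPM or more in 2 libraries the same 7 were called, and 12.5% of 13881 genes were; Dlk1, Igf2, Mirg, H19 and Rian passed that filter through R&Z del livers alone, so nothing is read from this count. On plain CPM the median of all genes tested was 0.53 higher in R&Z del livers at 4 days on the log2 scale, against 0.06 after TMM normalization, so that the CPM difference of Peg3, 0.73 on the log2 scale, is near that of the median gene.

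At 50 days, the domain RNAs and Afp remained apart. In R&Z del livers the domain RNAs were at lower levels than at 4 days, while Afp overlapped its values at 4 days. Meg3 was at 32.9 and 29.1 CPM in R&Z del livers and at 3.12 CPM in the one R&Z flox liver, a ratio of 9.93 (7.90 to 12.6). Rian was at 2.23 and 2.17 CPM against 0.240 CPM, and Mirg at 1.42 and 0.459 CPM against 0.200 CPM. Every R&Z del value of these 3 RNAs lay above the control. Dlk1 had 16 counts in the R&Z del livers (0.258 and 0.417 CPM) and 0 in the control, which puts it at least 2.82-fold higher (floor of 3 counts over the group), far from its 18.6 and 17.8 CPM at 4 days.

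H19 was at 2.15 and 3.84 CPM in R&Z del livers at 50 days and at 1 count in the control, a ratio of 75.2 (13.3 to 2989). Afp differed between the R&Z del livers themselves, at 5.58 and 29.2 CPM, and was at 2.52 CPM in the control. Gpc3 was at 1.46 and 1.79 CPM against 0.200 CPM. Igf2 and Igf2bp3 had the opposite order, with 0.258 and 0.459 against 0.480 CPM for Igf2 and 0.473 and 0.375 against 0.560 CPM for Igf2bp3. Peg3 overlapped, at 0.215 and 2.25 against 0.560 CPM. In all, 7 of 10 genes were higher in both R&Z del livers, an order that 44.2% of 23825 genes had, and 2 were lower in both, where 18.3% of all genes were. Of the genes tested, 2.53% were called higher at this time, and of the members that passed the filter these were Meg3 (log2 fold change 3.09 ± 0.68, SE) and Rian (2.94 ± 0.81). With the libraries of conflicting labels placed by their characteristics, neither was called. Among these was a library that reads as wild-type by title and characteristics and as damaged by its characteristics. Its H19 (4.36 CPM), Gpc3 (4.95) and Dlk1 (0.814) lay above both labelled R&Z del livers at 50 days, and its Rian (2.22) between them. Its Meg3 (7.03), Afp (4.07) and Mirg (0.148) lay below both. The call of Meg3 did not hold without R&Z del replicate 1 and held without R&Z del replicate 2. Rian failed the filter without either of these libraries, so its call could not be checked there. Without the filter Rian, Meg3, Dlk1, Gpc3, H19 and Afp were called, against 3.83% of all genes, and with 1 CPM or more in 2 libraries Meg3 and H19 were called, against 2.06%. With only 1 control, none of these values has a check of the spread among controls at this time. H19 passed the filter of 2 libraries through R&Z del livers alone, so nothing is read from its call.

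At 170 days, Meg3 was at 2.98 and 4.54 CPM in R&Z del and at 0.679 and 0.0859 CPM in R&Z flox livers. Rian was at 1.34 and 1.13 CPM against 0.238 and 0.0429 CPM, and H19 at 0.618 and 2.88 CPM against 0.0679 and 0.0429 CPM. Afp was at 2.54 and 3.22 CPM against 1.76 and 0.687 CPM. These 4 genes did not overlap between the groups. Mirg had 4 counts in R&Z del livers and 0 in R&Z flox livers, and Dlk1 3 and 1, both low in every library. Gpc3, Igf2bp3, Igf2 and Peg3 overlapped. That makes 5 of 10 genes higher in both R&Z del livers, against 27.6% of 23369 genes, and none lower in both, against 8.18%. None of the 4 members tested was called (edgeR), where 0.411% of genes were called higher. Without the filter Meg3, Rian and H19 were called, against 1.17% of all genes. With 1 CPM or more in 2 libraries H19 was called, against 0.36%. It passed that filter through R&Z del livers alone, so nothing is read from its call. DESeq2's Wald test with the filter of 6 libraries called Meg3 and Rian, a description without the share of all genes called. The fitted log2 fold changes without the filter, 3.02 ± 0.35 for Meg3, 2.84 ± 0.62 for Rian and 4.67 ± 0.63 (SE) for H19, stand beside 3.04 ± 0.38, 2.89 ± 0.77 and 5.75 ± 0.89 at 50 days, while the CPM in R&Z del livers was lower than at 50 days for Meg3 and Rian.

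**Figure D2:**
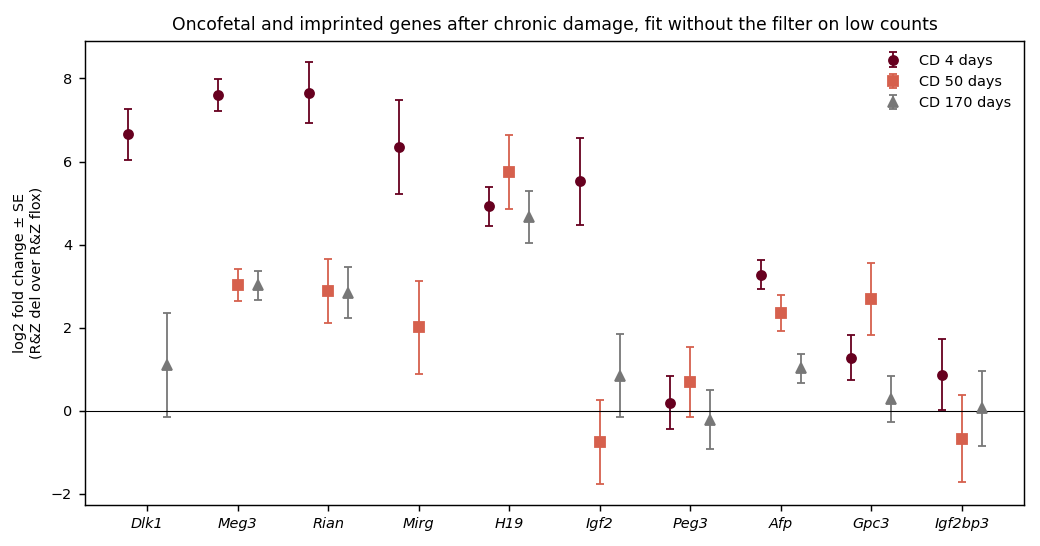
Log2 fold change between R&Z del and R&Z flox livers (positive where R&Z del is higher) with its SE for the 10 genes at CD 4, 50 and 170 days, from the fit without the filter on low counts; Dlk1 at 50 days and Mirg at 170 days are left out because the controls held 0 counts. Values at 4 days run from 0.20 for Peg3 to 7.66 for Rian.

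Labelled undamaged livers of batch 1, from other mice, give the level of these genes without CCl4. A further library reads as mutant and undamaged by title and characteristics, but its times conflict, so it entered no group. It held 41.8 CPM of H19, 26.4 of Meg3, 2.75 of Igf2 and 2.97 of Afp. At 7M, 7 of the 10 genes were higher in both R&Z del than in both R&Z flox livers, an order that 13.4% of 23578 genes had, and none was lower in both, where 18.2% were. Meg3 was at 3.22 and 17.6 CPM in R&Z del and at 2.06 and 0.402 CPM in R&Z flox livers. Rian was at 1.09 and 2.06 CPM against 0.247 and 0 CPM, H19 at 1.61 and 1.59 CPM against 0.0412 and 0.281 CPM, and Afp at 3.74 and 5.92 CPM against 1.61 and 1.93 CPM. The R&Z del livers at 170 days after CD, with 2.98 and 4.54 CPM of Meg3, lay within or near the range of these undamaged R&Z del livers. Gpc3, Dlk1 and Mirg also kept the groups apart at 7M, Dlk1 and Mirg with 12 and 11 counts in R&Z del livers. R&Z flox replicate 5 was from a female and the other 3 livers were from males. R&Z flox replicate 1 is thus the only male control here, and the order of the 7 genes against it is no separate check.

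At 3M, the single R&Z del liver of batch 1 had 3.08 CPM of Afp, 1.46 CPM of Meg3 and 0.809 CPM of H19. The R&Z flox livers had 2.38 and 1.26 CPM of Afp, 1.94 and 0.204 CPM of Meg3 and 0.132 and 0.163 CPM of H19. H19 and Afp thus lay above both controls and Meg3 between them. In all, 6 of 10 genes lay above both controls, where 40.3% of 22134 genes did, and none below both, where 22.8% did. The R&Z del liver was from a female and the controls were from males, so sex and genotype cannot be told apart there.

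Batch 2 did not repeat this order. There 175 of the 300 values of these genes were 0. Of 30 libraries, Dlk1 was at 0 in 27, Igf2 and Mirg in 25, H19 in 24, Rian in 21 and Gpc3 in 16. Igf2bp3 was at 0 in 12, Meg3 in 11, Peg3 in 9 and Afp in 5. At 7M, Meg3 was at 7.13, 1.70 and 0.115 CPM in R&Z del and at 9.20, 1.53 and 0 CPM in R&Z flox livers. Afp was at 0, 0.762 and 0 CPM in R&Z del and at 0.528, 0 and 7.44 CPM in R&Z flox livers. H19 had 1 count in all 6 libraries. Rian had 1 count in the R&Z del and 40 in the R&Z flox livers, and Mirg 0 and 22. None of the 10 genes was higher in every R&Z del liver, where 3.01% of 21885 genes were, and none was lower in every one, where 4.15% were.

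At 1M, Afp was present in all 8 libraries, from 1.53 to 5.01 CPM in R&Z del and from 1.69 to 4.47 CPM in R&Z flox livers, and the groups overlapped. Meg3 reached 12.6 CPM in one R&Z del liver and 1.97 CPM in another, and was at 2 counts or fewer in the other 6 libraries. Rian had 0 counts in the R&Z del and 28 in the R&Z flox livers. Peg3 was at 7.83 and 8.53 CPM in 2 R&Z del livers and at 8.49 and 5.97 CPM in 2 R&Z flox livers, with 0.407 and 0.0953 CPM in the remaining R&Z del livers and 1.31 and 0 CPM in the remaining controls. At 3M, Peg3 ran from 0.256 to 49.8 CPM in the R&Z flox livers of batch 2, with 0 in the single R&Z del liver, an order that 14.8% of 17303 genes had. Rian (9 counts) and Mirg (2 counts) were present in that R&Z del liver and at 0 in the controls, where 26.8% of genes were higher. No member separated the groups at 1M, where 2.72% of 21829 genes were higher and 0.962% lower in every R&Z del liver. In the joint model of the undamaged livers (edgeR), 7 members passed the filter and none was called at 1M, 3M or 7M, where 0.436%, 0.226% and 0.451% of 12848 genes were called in either direction.

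After PHx, Meg3 was higher in all 3 R&Z del livers at 7 days, with 0.176, 1.37 and 7.22 CPM, than in the R&Z flox livers, with 0, 0.0623 and 0 CPM. It was the one member with that order, which 4.86% of 21540 genes had, while no member had the opposite order, which 3.29% had. The lowest of the R&Z del values rests on 3 counts. At 21 days it overlapped, with 2.69, 0 and 10.3 CPM in R&Z del and 0, 0.960 and 0 CPM in R&Z flox livers. Afp was at 4.45, 2.28 and 0 CPM in R&Z del and 2.20, 0.810 and 9.34 CPM in R&Z flox livers at 7 days, and at 11.5, 0 and 9.34 against 2.10, 3.28 and 8.40 CPM at 21 days. The groups overlapped both times. At 21 days they overlapped for all 10 genes, while 5.85% of 20192 genes were higher and 2.62% lower in every R&Z del liver.

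Dlk1 had 0 counts in all 12 PHx libraries, and H19 was above 3 counts in 1 R&Z del liver (1.11 CPM) and 1 R&Z flox liver (1.24 CPM), both at 7 days. Of the 5 members that passed the filter after PHx, none was called (edgeR), where 0.228% of 14043 genes were called at 7 days and 0.306% at 21 days. With p left unadjusted (threshold 0.05, fold limit kept), Meg3 (higher) and Igf2bp3 (lower) passed at 7 days and no member at 21 days. The share of all genes that passed at this threshold is not given here, so nothing is read from these members. Igf2bp3 had 17 counts in the R&Z flox livers at 7 days, 16 of them in 1 library, and 0 in the R&Z del livers.

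**Figure D3:**
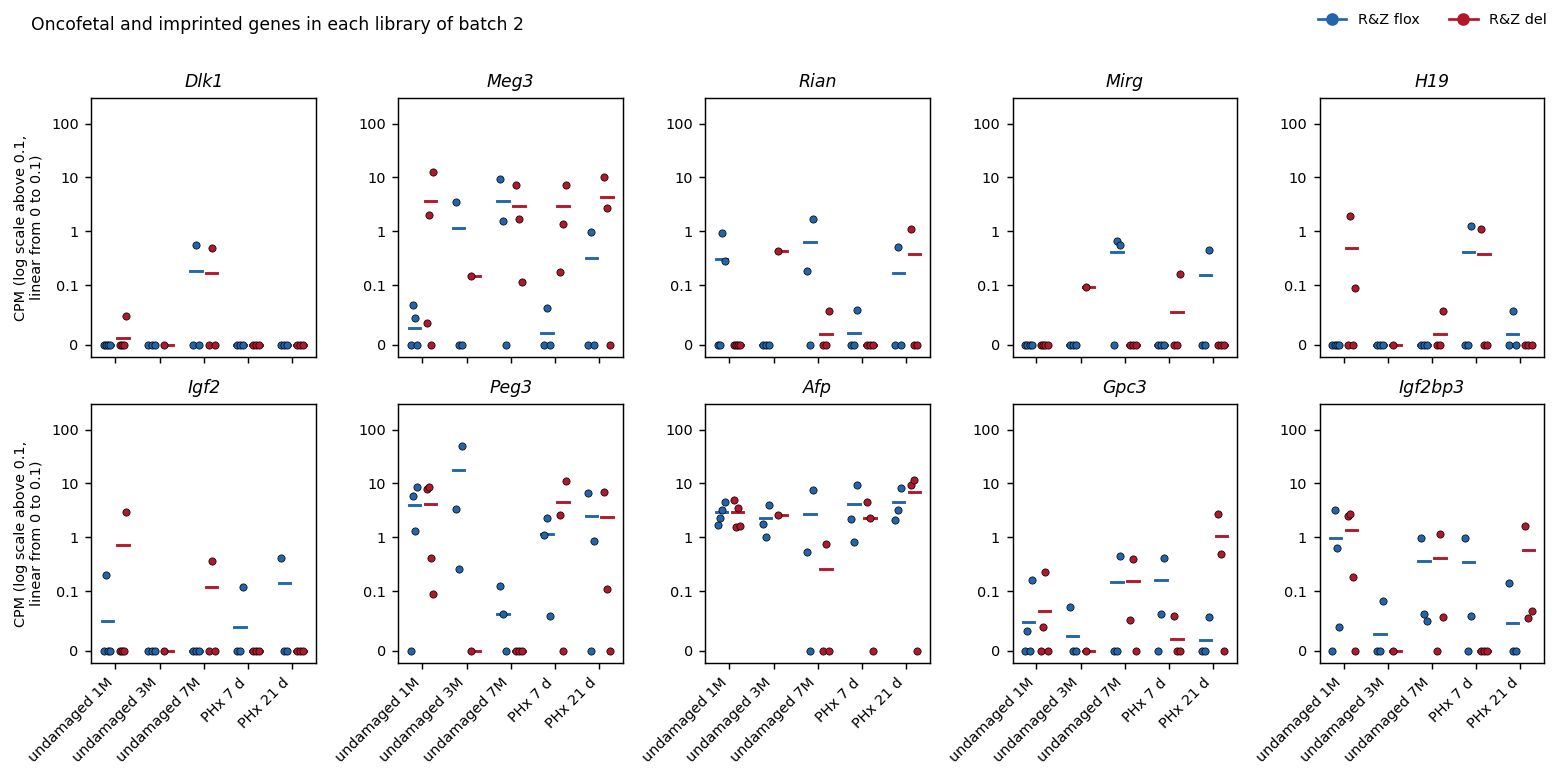
CPM of each of the 10 genes (vertical axis, logarithmic above 0.1 and linear from 0 to 0.1) in every library of batch 2, by condition; points are libraries, bars the group mean, red R&Z del and blue R&Z flox. Most points of Dlk1, Rian, Mirg, H19 and Igf2 lie at 0, and the groups overlap for all genes but Meg3 at PHx 7 days and Rian, Mirg and Peg3 at 3M, where R&Z del is 1 library.

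Between the start of Dlk1 and the end of Dio3, the files of batch 1 list 99 further rows, of which 79 held 0 counts in every CD library. Rtl1, Gm34667 and Dio3os had over 1 CPM in 2 or more CD libraries. Dio3os, a non-coding RNA beside the deiodinase gene Dio3, rose at 4 days, at 2.0 and 1.87 CPM in R&Z del and 0.266 and 0.102 CPM in R&Z flox livers (log2 fold change 2.88 ± 0.50, SE; adjusted p = 0.0070, edgeR). It did not pass the test at 50 days (0.89 ± 0.54) or 170 days (-1.18 ± 0.43). Gm34667 fell at 4 days, from 4.39 and 3.08 CPM in R&Z flox to 1.71 and 0.492 CPM in R&Z del livers (-2.22 ± 0.55, adjusted p = 0.026, edgeR). Rtl1, a paternally read gene derived from a retrotransposon, did not pass the filter; it was at 4.58 and 3.61 CPM in R&Z del livers at 4 days and at 0 and 0.0339 CPM in R&Z flox livers. Its row overlaps the end of Meg3 and the start of Rian, and because the counting ignored strand, reads of Rtl1 and of these RNAs cannot be told apart there.

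Of 7 listed genes of the domain and its flanks, 4 were tested at 4 days and only Dio3os passed. Of 25 imprinted genes elsewhere in the genome, 12 were tested and 4 rose at 4 days, with a median log2 fold change of 0.82 against 0.06 over all genes. Grb10, an adaptor that dampens insulin and IGF receptor signals, rose by 2.93 ± 0.72 (SE, adjusted p = 0.0245, edgeR), from 2.46 and 1.79 CPM in R&Z flox to 18.5 and 27.3 CPM in R&Z del livers. Igf2r, the receptor that clears IGF2, rose by 1.22 ± 0.20 (adjusted p = 0.0058), the cell cycle inhibitor Cdkn1c by 1.12 ± 0.35 (adjusted p = 0.056) and Impact, a regulator of translation, by 1.05 ± 0.34 (adjusted p = 0.059). None of the 12 passed at 50 or 170 days (edgeR).

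Of the 14 genes of the IGF axis, all tested, Igf2r and the receptor Igf1r rose at 4 days and the binding protein Igfbp1 fell, where 10.2% of all genes tested were called higher. Igf1r was at 5.67 and 11.7 CPM in R&Z del and 1.10 and 1.76 CPM in R&Z flox livers (log2 fold change 2.10 ± 0.61, SE; adjusted p = 0.042, edgeR), and Igfbp1 changed by -2.27 ± 0.68 (adjusted p = 0.046). The list's median was -0.07. Of 8 oncofetal RNA-binding and chromatin factors, 2 were tested, and the transcription factor Sox4 rose at 4 days (3.48 ± 0.36, adjusted p = 0.0010) and at 50 days (3.67 ± 0.53, adjusted p = 0.043).

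Of the 13 regulators of Afp and relatives of albumin, 2 rose at 4 days and none fell. Foxa1, a pioneer factor of endoderm, rose by 1.26 ± 0.34 (SE, adjusted p = 0.034, edgeR). None of the 3 other glypicans tested passed. Of 11 WNT targets, a list that holds Rnf43 and Znrf3 themselves, 7 rose at 4 days, 1 at 50 days and 3 at 170 days, with medians of 1.37, 0.86 and 1.22. Lect2 rose at 4 days (1.37 ± 0.21, adjusted p = 0.0046), and Glul, the pericentral glutamine synthetase, was at 0.18 ± 0.48 and did not pass.

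**Figure D4:**
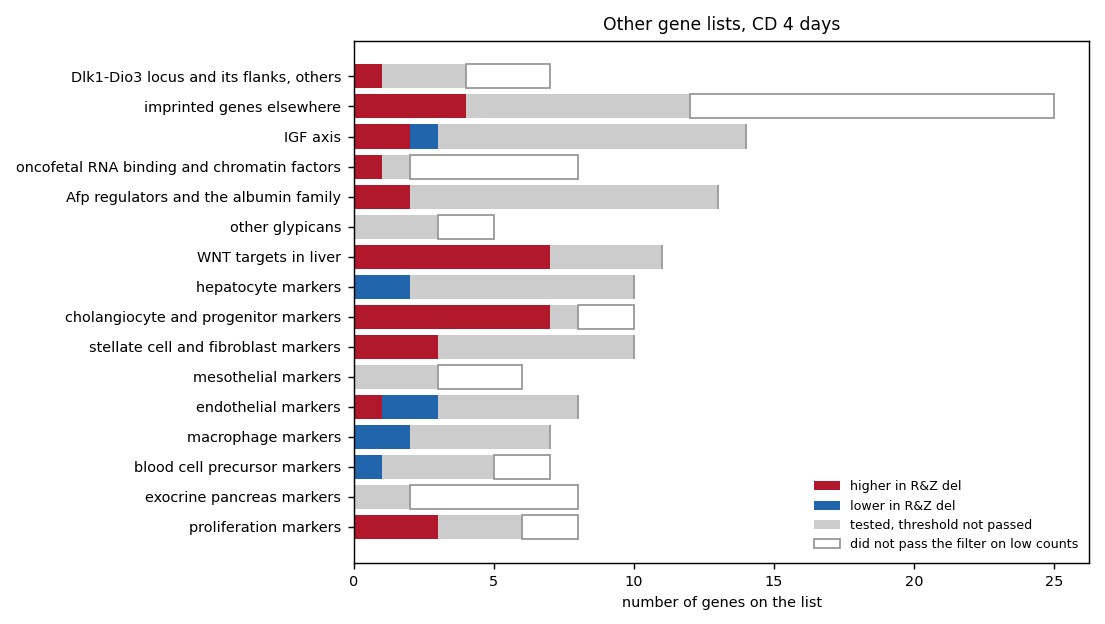
Number of genes of each other list (horizontal axis) that were higher, lower or not past the threshold in R&Z del livers at CD 4 days, or did not pass the filter on low counts. The cholangiocyte and progenitor markers and the WNT targets have 7 genes each that were higher.

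Markers of other cell types moved in the same livers. Of 10 cholangiocyte and progenitor markers, 8 were tested and 7 rose at 4 days, with a median log2 fold change of 4.44. Their summed level was 3656 to 6525 CPM in R&Z del and 129 to 216 CPM in R&Z flox livers at 4 days, 613 to 1197 against 117 CPM at 50 days, and 260 to 336 against 63.4 to 290 CPM at 170 days. No marker of this list was at 0 at 4 days. Spp1 (osteopontin) alone was at 3271 and 5842 CPM in R&Z del livers at 4 days, and Cdh1 was at 0.43 ± 0.32 and did not pass the test. In whole livers, more cells of a type and more RNA per cell cannot be told apart.

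Of 10 stellate cell and fibroblast markers, 3 rose at 4 days, with a summed level of 420 to 1111 CPM against 226 to 337 CPM and no marker at 0. Col3a1 rose by 2.21 ± 0.63 (SE, adjusted p = 0.040, edgeR) and Dcn was at 0.05 ± 0.39. Of 8 proliferation markers, 6 were tested and 3 rose, with a summed level of 201 to 240 against 46.1 to 93.1 CPM. Cdk1 rose by 1.62 ± 0.28 (adjusted p = 0.0070), and Birc5, at 0.78 ± 0.29, did not pass.

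Of 10 hepatocyte markers none rose and 2 fell at 4 days, with a summed level of 74190 to 90699 against 93872 to 97058 CPM. Alb (-0.57 ± 0.40) and Apoa1 (-0.77 ± 0.40) did not pass. Of 8 endothelial markers 1 rose and 2 fell, among them Clec4g (-1.53 ± 0.37, SE; adjusted p = 0.023, edgeR), while Stab2 stayed within the fold limit at -0.64 ± 0.19. Of 7 macrophage markers 2 fell, among them Cd5l (-1.35 ± 0.51, adjusted p = 0.095), and Clec4f did not pass (-0.70 ± 0.35).

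Among 5 blood cell precursor markers tested, Alas2 fell (-3.01 ± 0.30, adjusted p = 0.00092, edgeR) and Hba-a1 was at 0.02 ± 0.34. None of the 3 mesothelial markers tested passed, with 0.95 ± 0.93 (SE) for Msln and 1.02 ± 1.08 for Upk3b. The summed level of the mesothelial list was 13.9 to 21.0 against 5.79 to 8.57 CPM. Neither of the 2 exocrine pancreas markers tested passed, Cela1 at -0.13 ± 0.33 among them. Ctrb1 was at 0.145 and 0 CPM in R&Z del livers at 4 days and at 0 in the controls. The part of these cell types in the levels of Meg3, H19, Dlk1 and Afp was not tested.

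Over the 11 CD libraries, several members varied alike, given as a description. Most members were highest in the R&Z del livers at 4 days, and the part of these 2 livers in the likeness was not tested. Pearson's r of log2 CPM with Meg3 was 0.95 for Rian, 0.92 for Mirg, 0.90 for Afp, 0.83 for H19, 0.82 for Igf2 and 0.73 for Dlk1. It was lower for Gpc3 (0.59), Igf2bp3 (0.45) and Peg3 (0.28). Of 8937 other genes with a mean above 5 CPM, the 5 most like Meg3 were Rbis, Kat2a, Atn1, Ntmt1 and Bcl9l. The 5 most like Afp were Gramd1a, Brf1, Safb, Gapvd1 and Klc1, and the 5 most like H19 were Isg15, Ints3, Smc1a, Bcl2l1 and Sugt1. Their r ran from 0.96 to 0.98, but only 3 of the 15 were called at 4 days (Gramd1a, Klc1 and Isg15), with log2 fold changes of all 15 from 0.01 to 2.04. Plain CPM carries the shift of the median gene between these libraries, so that a high r here shares that scaling and does not set these genes beside the members in size.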

How the data were processed

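Per the labels and the study's methods, the authors sequenced Smart-Seq2 libraries of whole livers, aligned the trimmed reads to mm10 with STAR 2.5.0a and assigned them to RefSeq genes with featureCounts; the file headers of batch 1 name version 1.5.0-p3 without strand. The deposited values are raw counts per gene, without normalization. In the batch 1 annotation, Meg3, Rian and Dlk1 list a second copy on a fix patch, so lengths here use chromosome exons only. Counts were scaled to CPM by library total, each batch apart. They were fitted in R 4.3.3 with edgeR 4.0.16 (TMM, quasi-likelihood; Benjamini-Hochberg over all genes tested), with DESeq2 1.42.0 as an alternative. The CD model held 6 groups; the PHx model added sex and the 1M libraries; the undamaged model had sex and batch, on shared symbols. PHx and undamaged filters asked for a CPM above 1 in 3 libraries. SEs come from the fold change and F. Fits were tested on simulated data. The members, lists and tests were chosen with earlier results of these data known. Named genes are all members, at most 4 called genes per gene list, the 2 most abundant genes per marker list, and domain rows over 1 CPM in 2 CD libraries. No library pair was identical (highest r 0.995 in batch 1 and 0.966 in batch 2). The study describes its replicates as mice, and nothing here checks that beyond the labels, so p-values measure the spread between libraries. A total of 2 labelled R&Z del 3M samples were not analysed here. The result of 1 listed gene is not reported here. Alternatives are in the closing section.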

Additional observations from a re-analysis of the deposited data

Results flagged for a closer look

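The 5 libraries with conflicting labels held levels above the highest R&Z flox library of batch 1. In the library titled R&Z del at 3M whose characteristics read mutant, undamaged and 7 months, H19 was at 41.8 CPM, Meg3 at 26.4, Igf2 at 2.75, Gpc3 at 3.06, Afp at 2.97, Rian at 1.57, Mirg at 0.830 and Dlk1 at 0.393 CPM, so that its H19 was above that of both R&Z del livers at CD 4 days. The library titled R&Z flox at 7M whose characteristics read wild-type, damaged and 3 months had Meg3 at 7.03, Gpc3 at 4.95, H19 at 4.36, Afp at 4.07, Rian at 2.22, Igf2 at 0.961 and Dlk1 at 0.814 CPM, above every labelled R&Z flox library of the batch. In the library titled R&Z del at 3M whose characteristics read mutant, damaged and 3 months, Gpc3 was at 5.53, Afp at 3.65 and Rian at 0.955 CPM, with H19 at 0. In the library titled R&Z flox at CD 50 days whose characteristics read wild-type, undamaged and 3 months, Meg3 was at 6.20, Afp at 3.90, H19 at 2.20 and Rian at 0.646 CPM. The study's sample list gives this library as an undamaged R&Z del liver. In the library titled R&Z del at CD 50 days whose characteristics read mutant, damaged and 7 months, Meg3 was at 3.84 and Rian at 0.317 CPM.

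At 1M, 5 of 20 sets of 4 libraries held a highest value far from the other 3. These were Meg3 at 12.6 CPM, Igf2 at 2.91, H19 at 1.89 and Dlk1 at 0.0477 CPM (1 count) in R&Z del livers, and Igf2 at 0.201 CPM in a R&Z flox liver. Chance gives about 1 in 20 such sets for values that vary freely, but where the other 3 libraries are all at 0, as for Igf2 in both groups and Dlk1, any count sets the highest apart, so that rate does not hold here.

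Igf2 had opposite orders at 2 times after CD. The mean of R&Z del minus that of R&Z flox livers was 2.53 CPM at 4 days and -0.122 CPM at 50 days, where the control is 1 library, and the difference between the times was not tested.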

How the results depend on the processing

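Without the filter on low counts, the number of members called at CD 4, 50 and 170 days was 7, 6 and 3 in place of 3, 2 and 0. The members added at 4 days, Dlk1 and H19 at 50 days and H19 at 170 days had failed the filter. Afp and Gpc3 at 50 days and Meg3 and Rian at 170 days were tested in both fits. Their fold changes were close and their SEs smaller without the filter (Meg3 at 170 days 3.00 ± 0.62 with it and 3.02 ± 0.35 without). A filter of 1 CPM in 2 libraries, added after seeing the data, gave 7 at 4 days and 1 at 170 days. Dlk1, Igf2, Mirg, H19 and Rian passed it through R&Z del livers alone, so nothing is read from these counts. DESeq2 and edgeR's likelihood ratio test each called 4 at 50 days and 2 at 170 days, and DESeq2 called 1 (Meg3) at 1M and 1 (Peg3) at 3M. Unadjusted p-values called 2 at PHx 7 days. The share of all genes called by these tests and at the unadjusted threshold is not given here, so nothing is read from these counts. With the conflicting libraries placed by their characteristics (damaged at 3 or 7 months read as 50 or 170 days), 0 were called at 50 days. Leaving out 1 library gave 2 to 3 called members at 4 days (Rian failed the filter without either R&Z del library), 0 to 1 at 50 days (0 without R&Z del replicate 1, 1 without replicate 2) and 0 to 1 at 170 days (Meg3 without either R&Z flox library), and 0 for the other comparisons; all genes called ran from 827 to 1604 at 4 days in place of 1845, from 20 (without R&Z del replicate 1) to 689 at 50 days in place of 647, from 6 (without R&Z del replicate 2) to 396 (without R&Z flox replicate 2) at 170 days in place of 74, and from 38 to 204 (without R&Z del replicate 4) at 7M in place of 58. At 50 days the one control could not be left out, and Rian failed the filter without either R&Z del library. With a replicate block, 3 members were called at 4 days and 0 at 170 days, PHx 7 and 21 days, 1M and 7M, as without it. Same-numbered libraries correlated at 0.33 at 4 days and -0.34 at 170 days in their deviations, and the numbers mark nothing the labels name, so no pairing was assumed; with the numbers crossed at 170 days, chosen after seeing the data, 0 members and 60 of all genes were called. No paired analysis was possible at 50 days and 3M because the groups share fewer than 2 numbers. No called value turned direction. Counts of 3 or fewer limit Mirg and Dlk1 most, in 12 and 11 of 18 labelled libraries of batch 1. In batch 2 they were found in 27 and 28 of 30 libraries. H19 and Igf2 followed, each with 5 in batch 1 and with 27 and 26 in batch 2.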
